A study of Mus musculus with 6 samples.

Results

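The genes described here encode chaperones and folding enzymes of the endoplasmic reticulum (ER) and regulators of the unfolded protein response (UPR). The list holds Xbp1, Hspa5, Hsp90b1, Calr, Pdia4, Pdia6, Dnajb9, Hyou1, Sdf2l1 and Herpud1, and was set by gene symbol, with earlier results of these data known. All 10 were found among the 29955 genes of the deposited table, and all 10 passed the filter on low counts. Expression was compared by RNA-seq between mouse embryonic fibroblasts (MEFs) labelled Rnf40+/+ (3 libraries) and Rnf40-/- (3 libraries), all at passage 3. RNF40 is a subunit of the ubiquitin ligase that monoubiquitinates histone H2B. In the Rnf40-/- cells, loxP-flanked exons 3 and 4 of Rnf40 had been removed by a tamoxifen-inducible Cre recombinase (CreERT2) expressed from the ubiquitously active Rosa26 locus, with 250 nM 4-hydroxytamoxifen (4-OHT) for 5 days and a further 3 days without it. The study's methods name embryos carrying CreERT2 and both floxed alleles as the source of MEFs. The sources used here do not state whether the cells labelled Rnf40+/+ received 4-OHT, so the deletion and the drug cannot be told apart in this comparison. They also do not say whether the libraries of a genotype came from separate embryos, and the p-values therefore measure the spread between these libraries, which may be technical.

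Secretory and membrane proteins fold in the lumen of the ER, where HSP70- and HSP90-type chaperones, lectin chaperones and protein disulfide isomerases assist them. When unfolded proteins accumulate, the chaperone BiP is drawn away from the membrane sensors IRE1, PERK and ATF6. IRE1 splices Xbp1 mRNA into the form that encodes an active transcription factor, PERK phosphorylates eIF2alpha and thereby favours translation of ATF4, and ATF6 is cleaved in the Golgi to release another transcription factor. Their targets include ER chaperones and components of ER-associated degradation (ERAD). Fibroblasts secrete large amounts of collagen and fibronectin and rely on this machinery.

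Many of these genes share the ER stress response element (ERSE), in which the letters CCAAT and CCACG are separated by 9 bases of any kind, or its shorter form ERSE-II, in which ATTGG and CCACG are separated by 1 base. Promoter sequences from RefSeq (build GRCm38.p6, 250 bases before to 50 bases after the start of the gene) were at hand for 9 of the 10 genes, all but Hyou1, and were searched on both strands. An ERSE was found in 4 of the 9 (Hspa5, Hsp90b1, Calr and Pdia6), against 0.119% of 32851 promoters, and an ERSE-II in Herpud1, against 0.0365% of promoters. The UPR element TGACGTGG was found in 0 of the 9 promoters and in 0.676% of all promoters, and the C/EBP-ATF element, in which TGATG and AAT are separated by 1 base, was found in 0 of the 9 and in 0.965% of all promoters. The matches with 20 bases on each side are shown because they stand before genes that differed in how they moved. Each line reads along the strand of its gene, and capitals mark the element. The sites lie at chr2:34772005-34772063 (Hspa5, plus strand), chr10:86705618-86705676 and chr10:86705513-86705571 (Hsp90b1, minus strand), chr8:84847055-84847113 (Calr, minus strand), chr12:17266471-17266529 (Pdia6, plus strand) and chr8:94386357-94386407 (Herpud1, plus strand).
Hspa5 ERSE: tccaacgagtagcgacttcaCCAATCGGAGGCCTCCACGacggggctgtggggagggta
Hsp90b1 upstream ERSE: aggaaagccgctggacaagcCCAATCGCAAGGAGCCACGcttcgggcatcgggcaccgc
Hsp90b1 downstream ERSE, on the reverse strand: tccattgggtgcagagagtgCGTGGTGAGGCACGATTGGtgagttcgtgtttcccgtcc
Calr ERSE, on the reverse strand: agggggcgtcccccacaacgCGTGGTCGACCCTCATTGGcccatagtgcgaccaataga
Pdia6 ERSE: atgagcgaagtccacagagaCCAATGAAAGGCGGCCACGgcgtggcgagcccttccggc
Herpud1 ERSE-II: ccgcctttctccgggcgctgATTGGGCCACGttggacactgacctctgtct
The Hspa5 element began 65 bases before the start of the gene, the Hsp90b1 elements 212 and 107 bases before it, and the Herpud1 element 52 bases before it. The elements were already known to be shared by many of these genes, so the shares are a description and not a test of enrichment. A match describes these letters only, and binding of a factor was not measured here.

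In the deposited table, the reads of a gene are scaled by the size factor of the library, and the values are called normalized counts. The libraries held between 17053436 and 26344170 reads on genes, and 3 reads, taken as the limit of detection, corresponded to between 2.40 and 3.58 normalized counts. The 10 genes had from 259 reads (Sdf2l1) to 35617 reads (Hsp90b1) in a library and together took between 0.449% and 0.483% of the reads. Rnf40 itself had 1278, 1195 and 1096 normalized counts in Rnf40+/+ and 439, 519 and 487 in Rnf40-/- libraries. The Rnf40-/- mean was 40.5% of the Rnf40+/+ mean. Reads were counted per gene, so undeleted alleles cannot be told apart from transcripts that lack exons 3 and 4. Markers of 5 cell types were checked. All 8 fibroblast markers were detected, and all 8 were lower in Rnf40-/- MEFs in the test used below, with sums between 687543 and 754691 normalized counts in Rnf40+/+ and between 412127 and 415301 in Rnf40-/- libraries. Macrophage markers were also present (8 of 8 above 3 reads in some library), with sums between 5661 and 9702 in Rnf40+/+ and between 3535 and 3914 in Rnf40-/- libraries, and Rnf40+/+ replicate 3 was the highest. Of these 8 macrophage genes, 1 was higher and 3 were lower in Rnf40-/- MEFs. The sums were between 146 and 282 against between 234 and 333 for 6 endothelial genes, between 33.7 and 100.3 against between 50.04 and 72.4 for 6 epithelial genes, and between 1587 and 2949 against between 1604 and 1787 for 7 muscle and neural genes, of which Myod1 and Ckm had no more than 3 reads in any library. In each of these lists the highest Rnf40+/+ sum was that of replicate 1. There Tek had 115 normalized counts, against 11.2 and 16.0 in the other Rnf40+/+ libraries, and Tubb3 had 2670, against 1275 and 1353. The endothelial sums overlapped, but 3 of the 5 endothelial genes tested were higher and 1 (Emcn, -1.15) was lower. The higher ones were Cdh5 (2.76 ± 2.17 against 31.6 ± 8.03 normalized counts), Pecam1 (3.75 ± 1.22 against 27.6 ± 8.34) and Kdr (27.4 ± 6.47 against 84.5 ± 28.7, SD, n = 3 each). Cdh5 and Pecam1 were close to the limit of detection in Rnf40+/+ libraries. They passed the filter on low counts only through the Rnf40-/- libraries, so higher was the only call open to them. Of 3 epithelial genes tested 1 was higher (Cldn4, 6.10 ± 3.32 against 19.7 ± 0.263, SD, n = 3 each). It too passed the filter only through the Rnf40-/- libraries. The 4 muscle and neural genes tested had log2 fold changes between -0.31 and 0.55 that did not pass the test. Over all genes tested, 23.3% were higher and 24.1% lower. The part of these cell type markers in the differences below was not tested, and in bulk RNA a smaller share of a cell type cannot be told apart from less RNA per cell.

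In Rnf40-/- MEFs 4 of the 10 genes were lower (Herpud1, Hsp90b1, Xbp1 and Pdia6), 2 were higher (Hyou1 and Sdf2l1) and 4 did not pass the test (Hspa5, Calr, Pdia4 and Dnajb9). The ERAD component Herpud1 fell to 51.1% of its Rnf40+/+ level, the chaperone Hsp90b1 to 59.4% and the transcription factor Xbp1 to 61.5%, whereas Hspa5, which encodes BiP, stood at 101% and Calr at 108%. Genotypes were compared with limma after taking log2(normalized count + 1), and with Benjamini-Hochberg adjustment over the 16378 genes tested. Every log2 fold change below is on that scale and is the Rnf40-/- minus the Rnf40+/+ mean. Of all genes tested, 47.4% had an adjusted p under 0.05, 23.3% higher and 24.1% lower in Rnf40-/- MEFs, against 6 of the 10 genes, a share not far from this background. Over the 10 genes the median log2 fold change was -0.12, beside -0.0035 over all genes tested. The libraries of the genotypes did not overlap for 6 of the 10 genes, and did not overlap for 56.5% of all genes tested. No gene of the 10 changed by more than 2-fold. No permutation test is given, since exact enumeration over 3 and 3 libraries yields p = 0.1 at best.

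**Figure D1:**
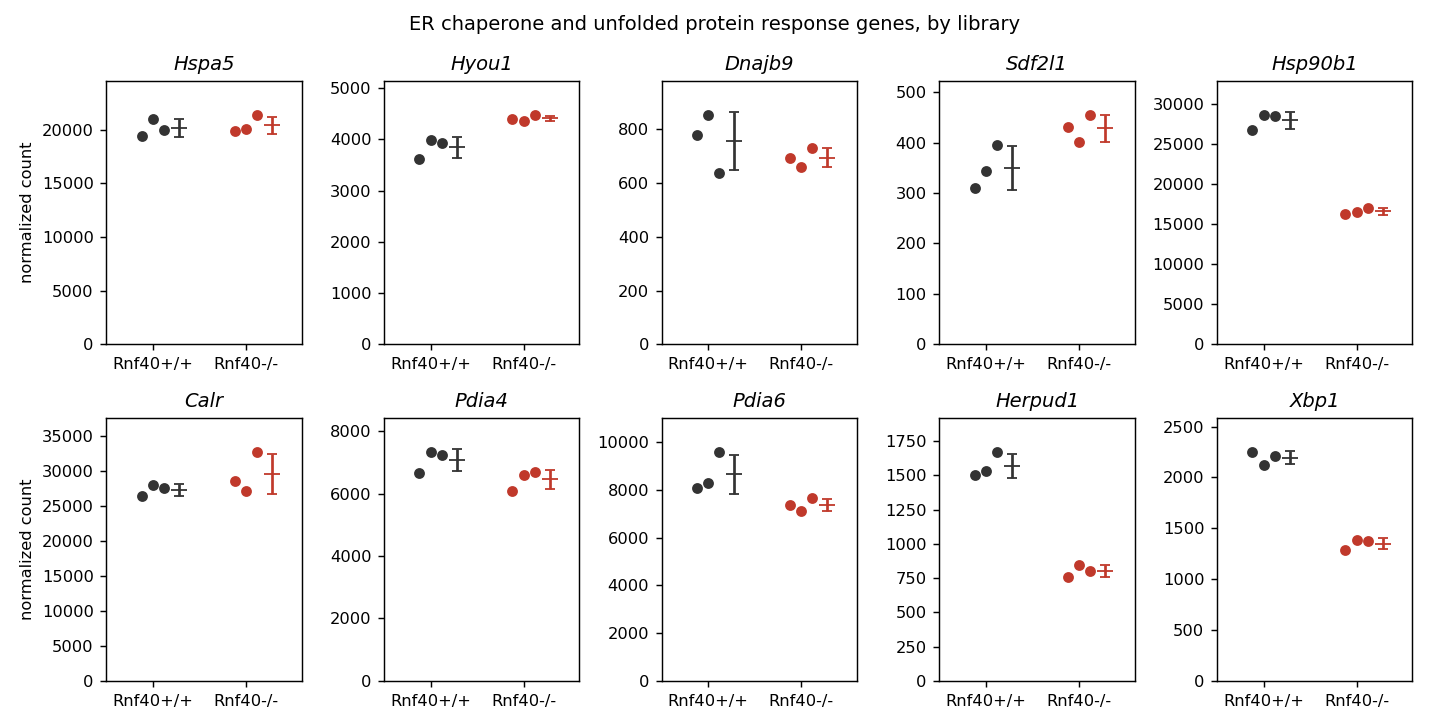
Normalized counts (vertical axes, starting at 0) of the 10 genes in the 3 Rnf40+/+ (black) and 3 Rnf40-/- (red) libraries. Points are libraries, and the bars beside them are the mean ± SD (n = 3). The points of Hsp90b1, Herpud1 and Xbp1 lie lower in Rnf40-/- without overlap, while those of Hspa5, Calr, Pdia4 and Dnajb9 overlap.

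Hspa5 encodes BiP (GRP78), the HSP70 chaperone of the ER and the central monitor of unfolded proteins (ENSMUSG00000026864, mm9 chromosome 2, 34627490 to 34632051, plus strand). It had 19378, 21006 and 19975 normalized counts in Rnf40+/+ and 19865, 20067 and 21323 in Rnf40-/- libraries. The ranges overlapped over most of their width. Its log2 fold change was 0.02 (standard error, SE, 0.07, adjusted p = 0.821), with a 95% interval from -0.13 to 0.17. The sign turned when Rnf40+/+ replicate 1 (-0.0054) or Rnf40-/- replicate 3 (-0.010) was left out.

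Hyou1 (GRP170), a large HSP70-related protein that exchanges the nucleotide of BiP, is on mm9 chromosome 9 from 44187573 to 44200452 on the plus strand (ENSMUSG00000032115). It had 3607, 3987 and 3932 normalized counts in Rnf40+/+ and 4404, 4362 and 4468 in Rnf40-/- libraries. Each Rnf40-/- library was above every Rnf40+/+ library, but by a narrow margin. The log2 fold change was 0.20 (SE 0.06, adjusted p = 0.0197). The call was lost without Rnf40+/+ replicate 1 (0.16, adjusted p = 0.0800) and without Rnf40-/- replicate 1 (0.20, adjusted p = 0.0738), replicate 2 (0.21, adjusted p = 0.0519) or replicate 3 (0.19, adjusted p = 0.0602).

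Sdf2l1, a small ER protein that works with J-domain co-chaperones of BiP, had the fewest reads of the 10 genes (ENSMUSG00000022769, mm9 chromosome 16, 17130231 to 17132476, minus strand). It had 309, 344 and 395 normalized counts in Rnf40+/+ and 431, 401 and 454 in Rnf40-/- libraries. The highest Rnf40+/+ library nearly reached the lowest Rnf40-/- library. The log2 fold change was 0.30 (SE 0.11, adjusted p = 0.0401). It did not pass with the Wald test of DESeq2 (adjusted p = 0.0588), nor in limma after leaving out any library but Rnf40+/+ replicate 3, with values between 0.22 (without Rnf40+/+ replicate 1, adjusted p = 0.131) and 0.35 (without Rnf40-/- replicate 2, adjusted p = 0.0510). Without Rnf40+/+ replicate 2 the value was 0.29 (adjusted p = 0.0941), without Rnf40-/- replicate 1 it was 0.29 (adjusted p = 0.106) and without Rnf40-/- replicate 3 it was 0.26 (adjusted p = 0.135).

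Dnajb9 (ERdj4), a J-domain co-chaperone of BiP that restrains IRE1, is on mm9 chromosome 12 from 45306884 to 45311055 on the minus strand (ENSMUSG00000014905). It had 779, 853 and 639 normalized counts in Rnf40+/+ and 694, 660 and 730 in Rnf40-/- libraries. The Rnf40+/+ libraries spread more widely and enclosed the Rnf40-/- libraries. The log2 fold change was -0.11 (SE 0.10, adjusted p = 0.392, 95% interval from -0.34 to 0.11). Without Rnf40+/+ replicate 3, the lowest of its group, it was -0.23 and passed the test (adjusted p = 0.0397).

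Hsp90b1 encodes GRP94, the HSP90 chaperone of the ER, which folds integrins and Toll-like receptors among other clients (ENSMUSG00000020048, mm9 chromosome 10, 86152954 to 86168254, minus strand). It had 26753, 28554 and 28443 normalized counts in Rnf40+/+ and 16227, 16453 and 17047 in Rnf40-/- libraries. The groups were far apart compared with the spread inside each of them. The means were 27916.7 ± 1009 and 16576 ± 424 (SD, n = 3 each), and the log2 fold change was -0.75 (SE 0.07, adjusted p = 3.36e-06). Leaving out 1 library at a time gave values between -0.78 and -0.74. The annotation places 3 other genes over its exons, including a noncoding gene on the opposite strand. The kit was directional, but the strand setting of the authors' counting is not stated, and their reads cannot be told apart here.

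The proportions of the chaperone mRNAs differed between the genotypes. The ratio of Hspa5 to Hsp90b1 normalized counts was 0.724, 0.736 and 0.702 in Rnf40+/+ and 1.22, 1.22 and 1.25 in Rnf40-/- libraries. The ratio of Calr to Hsp90b1 was 0.987, 0.984 and 0.970 in Rnf40+/+ and 1.77, 1.65 and 1.92 in Rnf40-/- libraries. Both ratios were higher in every Rnf40-/- library, but they share the denominator Hsp90b1 and restate its fall. They do not depend on the size factors, and were chosen after the values were seen and not tested. Hsp90b1 made up 27.96% ± 0.0096 (SD, n = 3) of the summed normalized counts of the 10 genes in Rnf40+/+ and 18.8% ± 0.530 in Rnf40-/- MEFs. The sum itself was between 95718 and 102117 in Rnf40+/+ and between 85106 and 93262 in Rnf40-/- libraries, so that the Rnf40-/- mean was 88.2% of the Rnf40+/+ mean.

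**Figure D2:**
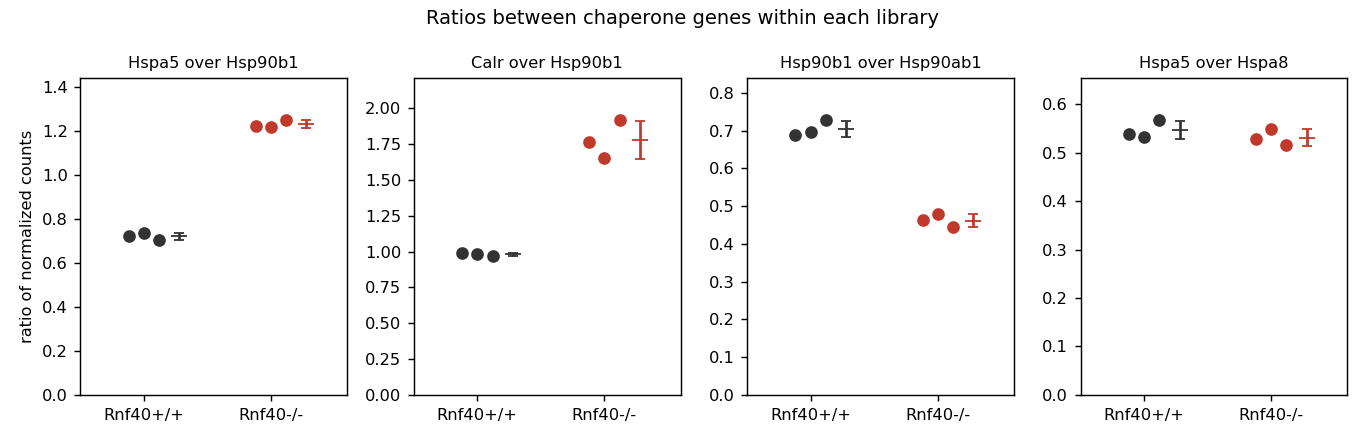
Ratios of normalized counts of gene pairs (vertical axes, starting at 0) in each of the 3 Rnf40+/+ (black) and 3 Rnf40-/- (red) libraries, with the mean ± SD (n = 3) beside the points. Hspa5 over Hsp90b1 and Calr over Hsp90b1 were higher and Hsp90b1 over its cytosolic paralog Hsp90ab1 was lower in every Rnf40-/- library, whereas Hspa5 over its cytosolic paralog Hspa8 overlapped between the genotypes. The ratios that include Hsp90b1 restate its fall.

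Paralogs outside the ER were compared as a list of 5 genes. None was called higher and 1 was called lower by limma, beside 23.3% higher and 24.1% lower over all genes. At an unadjusted p under 0.05, 1 was higher and 1 lower. The quasi-likelihood test of edgeR called 1 higher and DESeq2 called 0. The gene called lower was Hspa9, the mitochondrial HSP70, which fell by 0.51 in log2 units (adjusted p = 4.59e-05). Hspa8, the constitutive HSP70 of the cytosol, had a log2 fold change of 0.06 (95% interval from -0.12 to 0.24, adjusted p = 0.559), and Hsp90ab1, the constitutive cytosolic HSP90, had one of -0.14 (95% interval from -0.31 to 0.03, adjusted p = 0.151). The ratio of Hsp90b1 to Hsp90ab1 was 0.689, 0.696 and 0.729 in Rnf40+/+ and 0.463, 0.479 and 0.444 in Rnf40-/- libraries. Hspa5 over Hspa8 was 0.547 ± 0.0189 in Rnf40+/+ and 0.531 ± 0.0171 (SD, n = 3 each) in Rnf40-/- MEFs, a difference smaller than the spread.

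Calr encodes calreticulin, the soluble lectin chaperone of glycoproteins and a calcium store of the ER (ENSMUSG00000003814, mm9 chromosome 8, 87365749 to 87370833, minus strand). It had 26409, 28087 and 27600 normalized counts in Rnf40+/+ and 28660, 27215 and 32741 in Rnf40-/- libraries. Rnf40-/- replicate 3 was the highest, while Rnf40-/- replicate 2 was inside the Rnf40+/+ range. The log2 fold change was 0.11 (SE 0.08, adjusted p = 0.314, 95% interval from -0.07 to 0.29). Canx, which encodes the membrane-bound counterpart calnexin, had 21649 ± 1396 normalized counts in Rnf40+/+ and 29727 ± 1097 (SD, n = 3 each) in Rnf40-/- MEFs and rose by a log2 fold change of 0.46 (adjusted p = 0.000333).

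Pdia4 (ERp72) and Pdia6 (P5) are thioredoxin-like protein disulfide isomerases that form and rearrange disulfide bonds. Pdia4 (ENSMUSG00000025823, mm9 chromosome 6, 47746141 to 47763511, minus strand) had 6667, 7329 and 7244 normalized counts in Rnf40+/+ and 6092, 6593 and 6675 in Rnf40-/- libraries. The groups touched at Rnf40+/+ replicate 1, and the difference of -0.13 (SE 0.07, 95% interval from -0.28 to 0.01) did not pass the test (adjusted p = 0.121). Pdia6 (ENSMUSG00000020571, chromosome 12, 17273351 to 17291576, plus strand) had 8062, 8304 and 9584 normalized counts in Rnf40+/+ and 7362, 7127 and 7646 in Rnf40-/- libraries. All Rnf40-/- libraries were lower, but much of the distance came from Rnf40+/+ replicate 3. The log2 fold change was -0.23 (SE 0.07, adjusted p = 0.0261). It was -0.15 (adjusted p = 0.0689) without Rnf40+/+ replicate 3, -0.22 (adjusted p = 0.0867) without Rnf40-/- replicate 1 and -0.20 (adjusted p = 0.104) without Rnf40-/- replicate 2, and then did not pass. An exon of Atp6v1c2 overlaps Pdia6 on the opposite strand.

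Herpud1 (HERP), a membrane protein that helps to assemble the ubiquitin ligase complex of ERAD, had the largest change of the 10 genes (ENSMUSG00000031770, mm9 chromosome 8, 96910338 to 96919277, plus strand). It had 1504, 1531 and 1669 normalized counts in Rnf40+/+ and 759, 845 and 801 in Rnf40-/- libraries. The lowest Rnf40+/+ library was far above the highest Rnf40-/- library. The means were 1568 ± 88.7 and 802 ± 43.4 (SD, n = 3 each), and the log2 fold change was -0.97 (SE 0.07, adjusted p = 1.07e-06). Leaving out 1 library at a time gave values between -1.01 and -0.92. Its paralog Herpud2 had a log2 fold change of 0.0030 (95% interval from -0.14 to 0.15, adjusted p = 0.975).

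Xbp1 encodes the transcription factor of the IRE1 branch (ENSMUSG00000020484, mm9 chromosome 11, 5420662 to 5425896, plus strand). It had 2250, 2122 and 2213 normalized counts in Rnf40+/+ and 1289, 1383 and 1378 in Rnf40-/- libraries. Both groups were tight and did not overlap. The means were 2195 ± 65.8 and 1350 ± 52.8 (SD, n = 3 each), and the log2 fold change was -0.70 (SE 0.06, adjusted p = 4.28e-06). Leaving out 1 library at a time gave values between -0.73 and -0.67. The table counts reads per gene, so that the spliced and unspliced forms of Xbp1 mRNA were counted together, and splicing by IRE1 was not measured here.

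**Figure D3:**
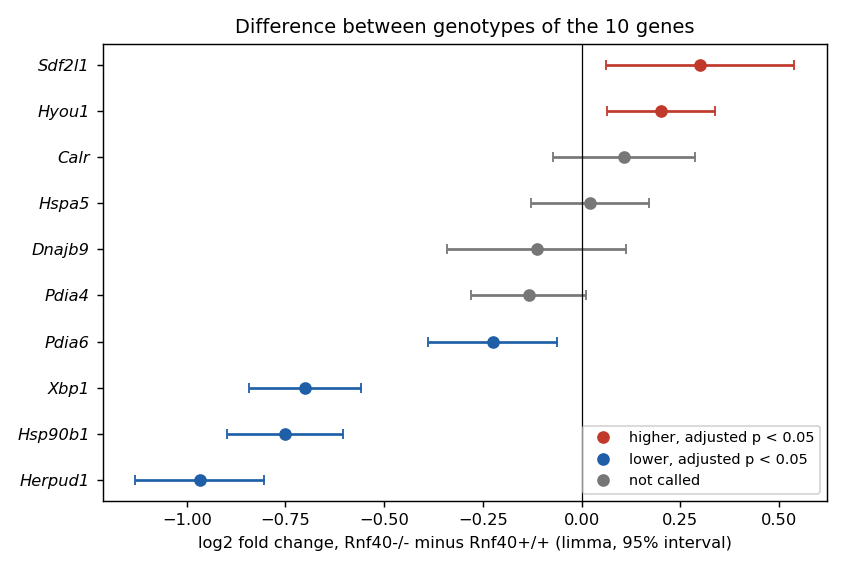
Log2 fold change (horizontal axis, Rnf40-/- minus Rnf40+/+, on the log2(normalized count + 1) scale) of the 10 genes from limma, with 95% intervals. Herpud1, Hsp90b1 and Xbp1 lie between -0.97 and -0.70, Pdia6 at -0.23, Hyou1 at 0.20 and Sdf2l1 at 0.30, and the intervals of the other genes include 0.

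Levels between genes were compared as normalized counts per kilobase of annotated exon (GENCODE M1, all exons of a gene merged). Calr was the highest in both genotypes, at 9502 ± 300 per kilobase in Rnf40+/+ and 10257 ± 995 in Rnf40-/- MEFs (SD, n = 3 each). In Rnf40+/+ MEFs it was followed by Hsp90b1 (6924 ± 250.3), Hspa5 (5727 ± 234), Pdia4 (2855 ± 145) and Pdia6 (2310 ± 218). In Rnf40-/- MEFs Hspa5 (5812 ± 225) stood above Hsp90b1 (4111 ± 105), followed by Pdia4 (2602 ± 127) and Pdia6 (1970 ± 69.4). In Rnf40+/+ the other genes ran from Xbp1 (676 ± 20.2) and Herpud1 (672 ± 38.0) over Hyou1 (531 ± 28.5) and Dnajb9 (406 ± 58.2) to Sdf2l1 (315 ± 39.1), where Xbp1 and Herpud1, and Dnajb9 and Sdf2l1, did not differ beyond their SDs. In Rnf40-/- they ran from Hyou1 (610.2 ± 7.35) over Xbp1 (416 ± 16.3), Sdf2l1 (387 ± 24.2) and Dnajb9 (372 ± 18.8) to Herpud1 (344 ± 18.6), and each neighbour from Xbp1 to Herpud1 was within the SDs of the next. The exon lengths come from this annotation and not from the transcripts the authors counted.

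Upstream of these genes, the list of UPR sensors, processing proteases and transcription factors held 12 genes. Of these, 4 were higher and 4 lower, beside 23.3% and 24.1% over all genes, and the median log2 fold change was 0.08. Ern1, which encodes IRE1alpha, rose from a mean of 182 ± 38.1 (SD, n = 3) to 337 ± 39.0 normalized counts, with a log2 fold change of 0.90 (SE 0.16, adjusted p = 0.000669). Eif2ak3, which encodes PERK, rose by 0.41 in log2 units (adjusted p = 0.0022). Atf6, the third sensor, had a log2 fold change of 0.10 (95% interval from -0.06 to 0.25, adjusted p = 0.283). The 3 sensors therefore had positive values, and 2 of them passed the test.

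The mRNAs of the PERK branch factors Atf4 and Ddit3 were lower in Rnf40-/- MEFs, and PERK activity and ATF4 protein were not measured here. Atf4, the factor that PERK signalling favours, fell from a mean of 7388 ± 178 (SD, n = 3) to 3795 ± 103 normalized counts, with a log2 fold change of -0.96 (SE 0.06, adjusted p = 1.89e-07). Ddit3, which encodes CHOP, had 1649, 1672 and 2812 normalized counts in Rnf40+/+ and 1274, 1230.5 and 1361 in Rnf40-/- libraries and fell by 0.62 in log2 units (SE 0.16, adjusted p = 0.00729), or by 0.37 without Rnf40+/+ replicate 3. That library stood apart for Ddit3 and was also the highest library for macrophage markers. Exons of Mars and of a noncoding gene lie over Ddit3 on the opposite strand. Creb3l1 (OASIS), an ER-bound factor that promotes collagen secretion, fell by 1.05 in log2 units (adjusted p = 5.9e-07), and Atf3 rose by 0.97 (adjusted p = 7.7e-05).

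Of 6 genes listed as PERK and CHOP output, 2 were higher and 2 lower, beside 23.3% and 24.1% over all genes. Their median log2 fold change was -0.04. Trib3, a pseudokinase induced by CHOP, had the largest fall of all the genes in these ER lists, -1.48 (SE 0.17, adjusted p = 2.23e-05). Its normalized counts were 525.5, 571 and 895 in Rnf40+/+ and 211, 253 and 228 in Rnf40-/- libraries, with Rnf40+/+ replicate 3 again the highest. Nupr1 fell by 0.72 in log2 units (adjusted p = 3.6e-05). Sesn2 rose by 0.41 (adjusted p = 0.00174), and Ppp1r15b rose by 0.32 (adjusted p = 0.003). Ppp1r15b encodes the constitutive regulatory subunit of the eIF2alpha phosphatase, and is in this list although it is not itself an induced output. Ppp1r15a (-0.09, adjusted p = 0.287) and Chac1 (0.0083, adjusted p = 0.961), also in this list, did not pass the test.

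Among 9 further co-chaperones and exchange factors of BiP, 3 were higher and 2 lower, beside 23.3% and 24.1% over all genes. The median log2 fold change was 0.05. Manf, a secreted ER stress protein, fell by 0.60 in log2 units (adjusted p = 4.57e-05), and Dnajc10 (ERdj5), a reductase of ERAD substrates, fell by 0.26 (adjusted p = 0.00567). Dnajc3 (p58IPK) rose by 0.30 (adjusted p = 0.00534). Cdnf, the paralog of Manf, rose by 0.58 (adjusted p = 0.0202), from 119 ± 31.9 to 175 ± 2.25 normalized counts (SD, n = 3 each), and lost the call without Rnf40+/+ replicate 3 or any of the Rnf40-/- libraries. Over the 6 fits with 1 library left out, with or without the call, its value ran from 0.39 to 0.77.

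Of 14 other disulfide isomerases and ER oxidases, 7 were higher and 3 lower, beside 23.3% and 24.1% over all genes. The median log2 fold change was 0.25. Ero1l, the oxidase that recharges PDI, rose from a mean of 3889 ± 210 (SD, n = 3) to 6433 ± 218 normalized counts, with a log2 fold change of 0.73 (adjusted p = 3.1e-06). Txndc11 rose by 0.63 (adjusted p = 4.86e-05). Txndc5 fell by 0.60 in log2 units (adjusted p = 9.38e-06) and Qsox1 fell by 0.40 (adjusted p = 0.000565).

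Of 7 genes of lectin chaperones and glycan trimming, 2 were higher (Uggt1 and Canx) and 3 lower, beside 23.3% and 24.1% over all genes. The median log2 fold change was 0.07. Uggt1, the glucosyltransferase that returns misfolded glycoproteins to calnexin and calreticulin, rose by 0.60 (adjusted p = 1.22e-05), while its paralog Uggt2 fell by 0.61 in log2 units (adjusted p = 0.000155). Mogs, the first glucosidase to trim the glycan, fell by 0.55 (adjusted p = 0.00055).

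The ERAD list held 19 genes, of which 18 were matched in the table and 17 were tested. A total of 6 were higher and 0 were lower by limma, with 0 lower at an unadjusted p under 0.05 and 0 lower by edgeR or DESeq2, and the median log2 fold change was 0.09. The 6 called of 17 tested stand beside 47.4% called over all genes, 23.3% higher and 24.1% lower. Without Rnf40+/+ replicate 1 limma called 1 gene lower, Derl1 (-0.20, against -0.13 with all libraries). Sel1l, the scaffold of the HRD1 ligase, rose from a mean of 3335 ± 137 (SD, n = 3) to 5053 ± 102 normalized counts, with a log2 fold change of 0.60 (adjusted p = 8.78e-06). Os9, a lectin that hands substrates to SEL1L, rose by 0.54 (adjusted p = 0.000312). Syvn1, which encodes the HRD1 ligase, had a log2 fold change of 0.03 (95% interval from -0.12 to 0.17, adjusted p = 0.743). It was named after its value was seen. Herpud1, an ERAD component, and Dnajc10, a reductase of ERAD substrates, were counted in other lists and moved in the opposite direction.

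Of 15 genes of ER translocation and signal peptidase, 3 were higher and 6 lower, beside 23.3% and 24.1% over all genes. The median log2 fold change was -0.12. Sec61a1, which encodes the channel subunit of the translocon, rose by 0.35 in log2 units (adjusted p = 0.000551), while Sec61b, a small subunit of the same channel, fell by 0.50 (adjusted p = 0.000219). The translocon-associated Ssr3 fell by 0.48 (adjusted p = 0.000115). Ssr2 rose by 0.25 (adjusted p = 0.014) and lost the call without Rnf40+/+ replicate 2 or Rnf40-/- replicate 1 or 3 (values between 0.21 and 0.31 with each library left out). Without Rnf40-/- replicate 1 or replicate 3, only 1 gene of this list was called higher.

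**Figure D4:**
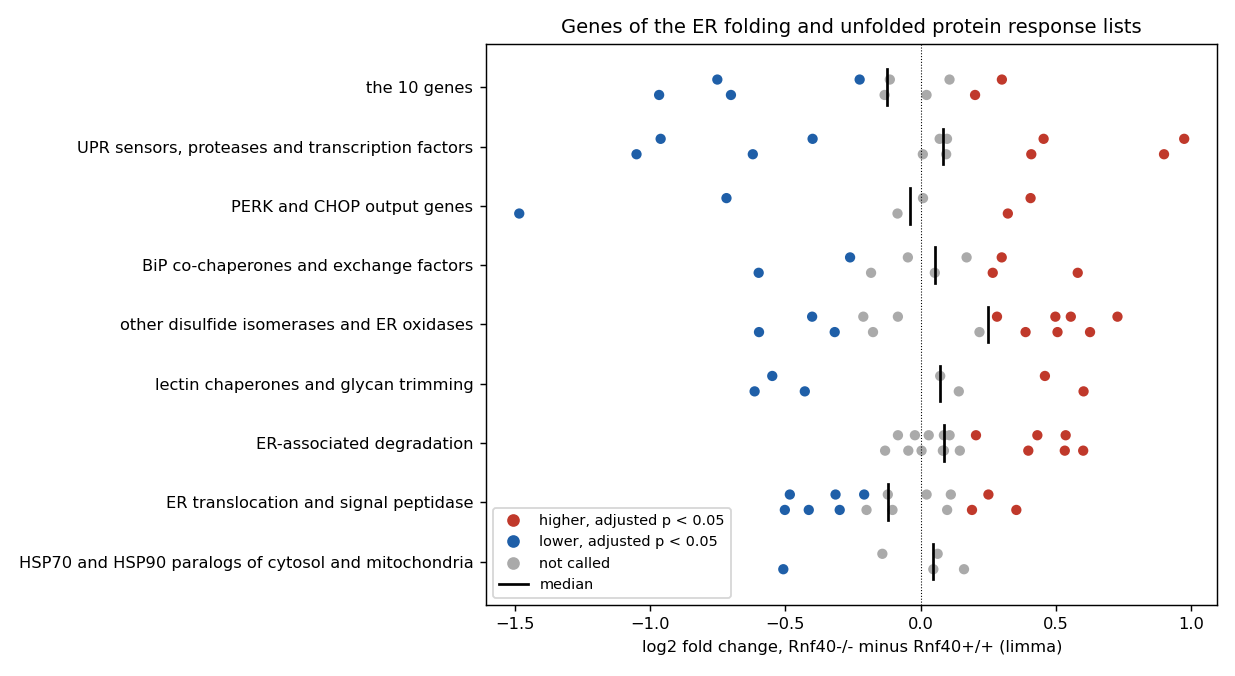
Log2 fold change (horizontal axis, Rnf40-/- minus Rnf40+/+, from limma) of each tested gene in the lists named on the vertical axis. Red points were higher and blue points lower with an adjusted p under 0.05, grey points were not called, and black bars are list medians, which run from -0.12 to 0.25. The lists of sensors and factors, PERK and CHOP output genes, co-chaperones, isomerases, lectin chaperones and translocation hold called genes of both directions. The ERAD list has 6 red and 0 blue points, with 1 lower call (Derl1) gained without Rnf40+/+ replicate 1, and over all genes 23.3% were higher and 24.1% lower.

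Collagen and fibronectin genes of the fibroblast list were measured alongside. Col1a2 had 116406 ± 11237 normalized counts in Rnf40+/+ and 24166 ± 404 (SD, n = 3 each) in Rnf40-/- MEFs, with a log2 fold change of -2.26 (adjusted p = 7.63e-09), which was the largest fall in that list. Col1a1 fell by 0.80 in log2 units (adjusted p = 0.000341) and Col3a1 by 0.75 (adjusted p = 4.64e-05). Fn1, which encodes fibronectin, had a log2 fold change of -0.64 (adjusted p = 0.000463). The part of these changes in the values of the ER genes was not tested.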

How the data were processed

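RNA-seq libraries of Rnf40+/+ and Rnf40-/- MEFs (3 each) were compared. Per the study's methods, the authors aligned the sequences to transcripts of mouse build mm9 and scaled them with DESeq, and the submitters' processing notes list Bowtie2 (2.1.0) and DESeq (1.14.0). The counting tool is not given in the sources used here. The deposited signal is reads divided by a size factor per library, and 100% of the positive values were whole multiples (within 0.02 reads) of what 1 read is worth in the library, from which the reads were recovered. Libraries of a genotype differed by more than read sampling, so none was counted as a duplicate.

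Genes were filtered with filterByExpr of edgeR by genotype and tested with limma (3.58.1, with the trend option of eBayes) on log2(value + 1) with genotype as the single term. The quasi-likelihood test of edgeR (4.0.16) on the recovered reads called 3857 genes higher and 3940 lower. Other alternatives were DESeq2 (1.42.0), TMM and upper-quartile scaling, pseudocounts of 0.1 and 10, no filter, a minimum of 10 reads per library, a replicate block, a minimum fold change of 2 and leaving out each library. The scripts were tested on simulated data. R (4.3.3) and Python (3.11.15) were used.

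The members and gene lists were chosen with earlier results of these data known. Genes named are all members, Rnf40, the sensors and factors Ern1, Eif2ak3, Atf6, Atf4 and Ddit3, and up to 2 rises and 2 falls per list with an adjusted p under 0.05, and the 5 genes most like Hspa5. Genes of the cell type lists, and Hspa8, Hsp90ab1, Herpud2, Syvn1, Derl1, Ppp1r15a and Chac1, were added for comparison. One ERAD symbol matched more than 1 row and was left out. Protein sequences were not used here. Gene positions are from GENCODE M1 (mm9). Besides the overlaps given above, exons of other genes, on either strand, lie over exons of Pdia4, Hspa8, Manf, Txndc5, Txndc11 and Uggt2. The same holds for Syvn1, Ppp1r15a, Trap1, Col1a1, Fn1 and Ckm.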

Additional observations from a re-analysis of the deposited data

How the results depend on the processing

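With each library left out in turn, between 0 and 2 of the 10 genes were called higher and between 3 and 4 lower, between 0 and 1 gene of the ERAD list was called lower, and between 1 and 3 genes of the translocation list were called higher. The log2 fold change of Hspa5 ran from -0.010 to 0.053, and was below 0 without Rnf40+/+ replicate 1 (-0.0054) and without Rnf40-/- replicate 3 (-0.010). The Wald test of DESeq2 called 1 of the 10 genes higher. In the list of cytosolic and mitochondrial paralogs, 1 gene (Trap1) was called higher with TMM scaling, with at least 10 reads in every library and with edgeR. With a minimum fold change of 2, which by construction removes smaller changes, 840 genes were called higher and 937 lower over all genes, 0 higher and 0 lower among the 10 genes, 0 higher and 1 lower in the list of sensors and factors, 0 higher and 1 lower in that of PERK and CHOP output genes, and 0 in either direction in the other ER lists and the list of paralogs.

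No sign was seen that the replicate numbers pair the libraries. Deviations from the genotype means correlated by 0.012, 0.017 and 0.021 for same-numbered libraries, and each library correlated best with another number. With 3 libraries per genotype these correlations depend on each other, so they cannot decide whether same-numbered libraries shared a culture or batch. A fit with the replicate block called 4021 genes higher and 4196 lower, and 2 higher and 4 lower of the 10 genes. All other counts were within 1.5 times the values given, and no other fold change of the 10 genes turned in sign. Each of the 10 genes had at least 259 reads in every library. The calls of Hyou1, Sdf2l1 and Pdia6 were lost when some of the single libraries were left out, with the values given above.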

Other observations

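The 5 genes whose log2 values were most like those of Hspa5 over the 6 libraries, among genes tested with a mean above 15 normalized counts, were mKIAA0133 (Pearson's r = 0.988), Tmem53 (0.984), Kif1c (0.969), Txndc9 (0.965) and Ankrd46 (0.964). None of them belongs to the ER lists used here. The 6 points of each correlation share their library and its size factor. The values are the highest among all the genes compared, and picking the highest over 6 points yields high values by itself. They are given as a description and were not tested.

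Over all promoters searched, the ERSE was found for 37 gene symbols, of which 25 were in the deposited table and 20 had enough reads to be tested. Of these 20, 5 were called higher and 5 lower in Rnf40-/- MEFs, beside 47.4% called over all genes, and the median log2 fold change was 0.025, beside -0.0035 over all genes tested. The 4 genes of the main list are among them. Calr4, a calreticulin paralog, had 14.6 normalized counts in Rnf40+/+ and 44.3 in Rnf40-/- MEFs and rose by 1.56 (adjusted p = 0.00227), and Alg12, a mannosyltransferase of glycan assembly, rose by 0.37 (adjusted p = 0.018). Tdrd9 (2.77, below the limit of detection in Rnf40+/+ MEFs with 0.95 normalized counts) was also called higher. It passed the filter on low counts only through the Rnf40-/- libraries, so higher was the only call open to it. Calr4, Alg12 and Tdrd9 are outside the ER lists. From the ER lists, Canx (0.46) and Dnajc3 (0.30) carry an ERSE and were called higher. Zfp57 (-0.60), Spats2l (-0.63) and Adcy3 (-0.29) were called lower. The genes outside the ER lists were named after their values were seen. The ERSE-II was found for 12 symbols, of which 6 were tested. Of these, 1 was higher and 3 lower, beside 23.3% and 24.1% over all genes. The lower genes were Herpud1, Krtcap2, a subunit of the oligosaccharyltransferase, with a log2 fold change of -1.20 (adjusted p = 2.04e-06), and Nucb1 with -0.26 (adjusted p = 0.00401).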
